A study of Mus musculus with 3 samples.

Results

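The cells described here are dermal fibroblasts of mouse back skin that carried transcripts of several of Sfrp4, Thbs4, Fmo2, Inmt, Gdf10 and Angptl1. A barcode was kept with 300 or more detected genes, 500 or more unique molecular identifiers (UMIs, the count of captured transcript molecules) and at most 10% mitochondrial UMIs. It counted as a fibroblast when Col1a1, Col1a2, Col3a1 and Dcn made up 2% or more of its UMIs and it had no UMI of Ptprc, Pecam1 or Rgs5, the markers of leukocytes, endothelium and pericytes. It counted as a member when it also had a UMI of at least 3 of the 6 named genes and fewer than 3 UMIs of Pi16, a marker of interstitial progenitor fibroblasts. The rule found 522 members among 14007 fibroblasts and 26143 kept barcodes. All of the genes in the rule were measured in the same cells. The members were thus chosen by these UMI counts, whose values are given as a description and were not tested.

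The study profiled dissociated dorsal skin of C57BL/6 mice by droplet single-cell RNA sequencing, with 1 library for the neonatal stage, 1 for 3 weeks and 1 for 2 months. No genotype or treatment set the groups apart, and the skin was digested with collagenase D and DNase. Its title names the IL1 and WNT pathways. The animals per library and their sex are not given in the labels. With 1 library per age, no age difference has a replicate check and none has a p-value. In contrast, members and other fibroblasts of the same library were compared over the 3 libraries, which differ in age, so the spread there includes age.

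The reticular dermis is the deep, collagen-rich layer of the skin, built by fibroblasts of a lineage distinct from the papillary fibroblasts under the epidermis. Sfrp4 is a secreted frizzled-related protein that binds WNT ligands, and Thbs4 is a thrombospondin of the extracellular matrix that is abundant in tendon. Fmo2 is a flavin-containing monooxygenase, Inmt a methyltransferase of small amines, Gdf10 a ligand of the transforming growth factor beta superfamily, and Angptl1 a secreted angiopoietin-like protein. Mgp, which was proposed as a marker together with Sfrp4, Thbs4 and Fmo2 but is not in the rule, encodes matrix Gla protein, an inhibitor of calcification in soft tissue.

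In the GENCODE M21 annotation of mm10, which is GRCm38, Sfrp4 and Thbs4 both lie on chromosome 13. Sfrp4 (ENSMUSG00000021319) spans chr13:19623104-19632994 on the plus strand and Thbs4 (ENSMUSG00000021702) chr13:92751590-92794818 on the minus strand. Fmo2 (ENSMUSG00000040170, chr1:162874317-162898726, minus strand) and Angptl1 (ENSMUSG00000033544, chr1:156838562-156861078, plus strand) lie on chromosome 1. Inmt (ENSMUSG00000003477, chr6:55170626-55175043, minus strand) and Mgp (ENSMUSG00000030218, chr6:136872435-136875823, minus strand) lie on chromosome 6, and Gdf10 (ENSMUSG00000021943, chr14:33923587-33937983, plus strand) on chromosome 14.

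The libraries held 84086755, 113874172 and 98432611 UMIs in the neonatal, 3 week and 2 month matrices. Members numbered 94, 317 and 111 at these ages, with 1260119, 4239132 and 936777 UMIs in all. Their median UMIs per cell were 12343, 12318 and 7731, against 9725, 12527 and 10776 in the other fibroblasts, so that members were the deeper cells in the neonatal library and the shallower ones at 2 months. Between 27 and 35 barcodes were shared by any pair of libraries, and 0 of these were members in both. Lymphocyte markers summed to between 0 and 1.07 CPM, the count scaled to a common library total, in members and mature adipocyte markers to between 0 and 0.794 CPM, with Plin1, Cidec and Lep at 0 in all 3 libraries. The 5 endothelial markers summed to 15.1, 86.3 and 69.4 CPM in members at the 3 ages, against 15.9, 28.9 and 44.6 CPM in other fibroblasts. Plvap gave 3.17, 77.4 and 67.3 CPM of the sums in members, and Emcn was at 0 in members of every library. The 8 keratinocyte markers summed to 159, 1119 and 355 CPM in members, against 113, 893 and 642 CPM in other fibroblasts.

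Members made up 2.24% of neonatal fibroblasts, with a 95% exact Clopper-Pearson interval of 1.82 to 2.74. Their share was 5.95% (interval 5.33 to 6.61) in the 3 week library and 2.47% (interval 2.04 to 2.97) in the 2 month library. The share was highest at 3 weeks, and the neonatal and 2 month intervals overlapped at full depth but not after thinning. Intervals cover counting error only, not the spread between animals. After thinning each cell to 3000 UMIs, which sets cells to equal depth, the shares were 0.626% (interval 0.409 to 0.916), 2.31% (1.92 to 2.75) and 1.41% (1.07 to 1.81). Thinned to 1500 UMIs they were 0.144%, 0.921% and 0.683%. The Pi16 limit was applied to the thinned counts too, so thinning also let in cells that the limit excludes at full depth. In a separate draw at 3000 UMIs, 2, 25 and 8 fibroblasts that were not members at full depth met the rule. The 3 week share stayed above the neonatal share at each depth, while its interval at 1500 UMIs overlapped that of the 2 month library (0.682 to 1.22 in the 3 week library, 0.461 to 0.973 in that of 2 months). In cells gated as keratinocytes, which should lack these genes, 0 of 193, 0 of 1126 and 0 of 895 cells had 3 of the 6 genes at 3000 UMIs, which allows shares of up to 1.55%, 0.266% and 0.335%. The Pi16 limit removed many cells that otherwise met the rule. There were 37 such cells in the neonatal library, 230 at 3 weeks and 258 at 2 months.

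The genes by which cells entered the set were not the same at each age. Among neonatal members, 41 of 94 were counted through Sfrp4, Thbs4 and Angptl1 and 19 through Sfrp4, Fmo2 and Angptl1. At 3 weeks no combination held more than 35 of the 317 members, and 28 combinations were seen. At 2 months 31 of 111 members carried Fmo2, Inmt and Gdf10, 29 carried these with Sfrp4, and 22 carried Sfrp4, Inmt and Gdf10. Most members met the rule with no gene to spare, as 83 of 94, 192 of 317 and 72 of 111 had just 3 of the 6.

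Thbs4 had a UMI in 57.4%, 21.8% and 3.60% of members at the neonatal stage, 3 weeks and 2 months, and Angptl1 in 95.7%, 65.6% and 18.0%. Both were most often detected in the youngest members. Inmt had a UMI in 3.19%, 49.8% and 92.8% of members and Gdf10 in 26.6%, 69.1% and 94.6%, so these were most often detected in the oldest. At 3000 UMIs per cell, with 0, 1 and 9 shallower members left out, Thbs4 was seen in 37.2%, 15.2% and 2.94% and Inmt in 1.06%, 27.5% and 80.4%. The order therefore stood at equal depth. At the same depth Inmt was seen in 0 of 193, 1 of 1126 and 2 of 895 gated keratinocytes, whose median depths before thinning were 21158, 12196 and 11076.5 UMIs. Both genes had a UMI in 1 of the 3 neonatal members with Inmt, in 8 of the 69 members with Thbs4 at 3 weeks and in 2 of the 4 at 2 months. As both are in the rule, these counts describe the choice.

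**Figure D1:**
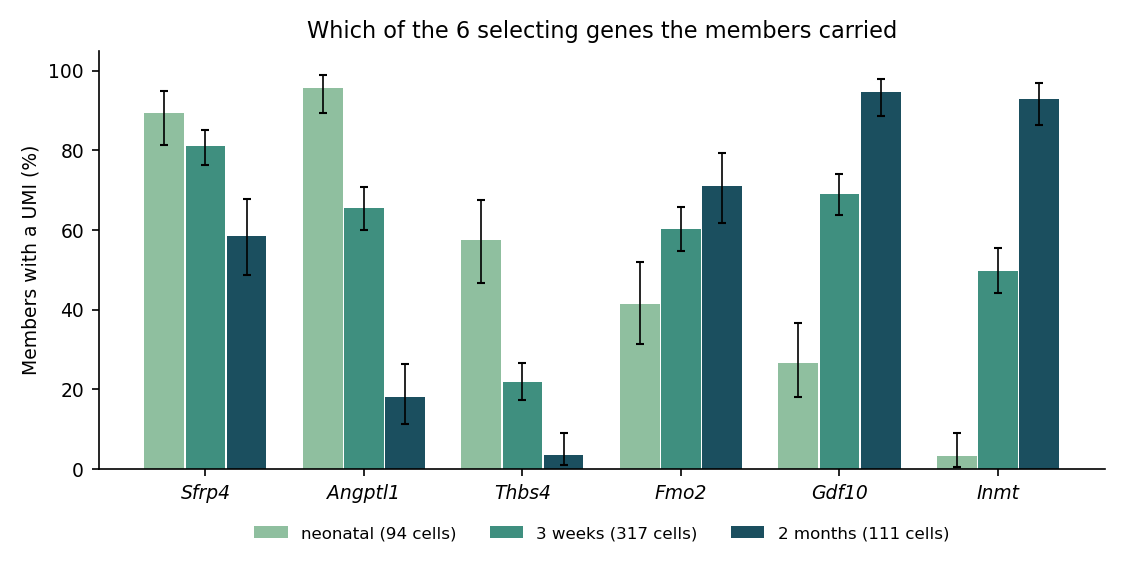
Share of members with at least 1 UMI of each of the 6 genes of the rule (y axis, %), in the neonatal, 3 week and 2 month libraries (bars from left to right); error bars are 95% exact Clopper-Pearson intervals for counting error. Thbs4 runs from 57.4% to 3.60% and Inmt from 3.19% to 92.8% over the 3 ages.

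Summed levels followed detection for Inmt, Gdf10, Fmo2 and Angptl1 but not for Sfrp4 and Thbs4. Sfrp4 was level across the ages, with 446, 416 and 474 CPM in members against 22.9, 98.7 and 65.5 CPM in other fibroblasts. Thbs4 was highest at 3 weeks, with 259, 538 and 21.3 CPM in members, and at 2 months 16 of the 20 UMIs came from 1 cell. Inmt stood at 3.97, 142 and 841 CPM, Gdf10 at 31.7, 236 and 542 CPM and Fmo2 at 80.9, 171 and 209 CPM. Angptl1 stood at 309, 228 and 44.8 CPM in members, against 25.8, 113 and 110.4 CPM in other fibroblasts, so at 2 months it was the only one of the 6 that was lower in members. The name of Thbs4 therefore describes 54 of 94 neonatal members, 69 of 317 at 3 weeks and 4 of 111 at 2 months.

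Just inside and just outside the rule, levels changed by steps. Neonatal fibroblasts with 3 of the 6 genes had 632 CPM of Mgp, those with 2 had 262 CPM and those with 0 or 1 had 17.2 CPM. At 3 weeks these values were 1031, 333 and 37.2 CPM and at 2 months 1168, 268 and 46.3 CPM. Cells that met the gene count but had 3 or more Pi16 UMIs had 38.3, 760.5 and 106 CPM of Mgp at the 3 ages.

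Mgp followed the members at every age. It stood at 596, 998 and 917 CPM in members, against 28.2, 129 and 74.6 CPM in other fibroblasts. Mgp was detected in 54.3%, 78.5% and 43.2% of members and in 4.69%, 14.8% and 8.41% of other fibroblasts. At 2 months 1 cell held 255 of the 859 Mgp UMIs. The fitted difference was a log2 fold change of 3.60 ± 0.30 (SE, n = 3 libraries), given here as a description because Mgp was proposed as a marker of these cells from earlier results of the same data.

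In the 3 week library, members that carried Thbs4 and members that carried Inmt were both numerous enough to set side by side. There 61 members had a Thbs4 UMI and none of Inmt, and 150 had an Inmt UMI and none of Thbs4, at median depths of 12646 and 11899 UMIs. The genes that follow were chosen after their values were seen. Eln, which encodes elastin, stood at 4809 CPM in the Thbs4 cells and 806 CPM in the Inmt cells. Hmcn2, which encodes the matrix protein hemicentin, stood at 403 and 33.8 CPM, and Postn, which encodes the matricellular protein periostin, at 2578 and 1205 CPM. These 3 matrix genes were higher in the Thbs4 cells. C3, the central complement component, had 55 UMIs (59.95 CPM) in the Thbs4 cells and 1139 UMIs (612 CPM) in the Inmt cells. C4b stood at 5.45 CPM in the Thbs4 cells and 265 CPM in the Inmt cells, and C2 at 57.8 and 609.8 CPM, so these 3 complement genes were higher in the Inmt cells. Apoe, the lipid-carrying apolipoprotein, stood at 329 and 1643 CPM and the cytokine gene Il6 at 222 and 850.5 CPM. Mgp and Sfrp4 differed little, with 1369 and 1003 CPM of Mgp and 427 and 426 CPM of Sfrp4. These are single values from 1 library with no replicate check, and the remaining 98 members with neither gene lay between for C3 (351 CPM), C4b (126 CPM) and Eln (1429 CPM).

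**Figure D2:**
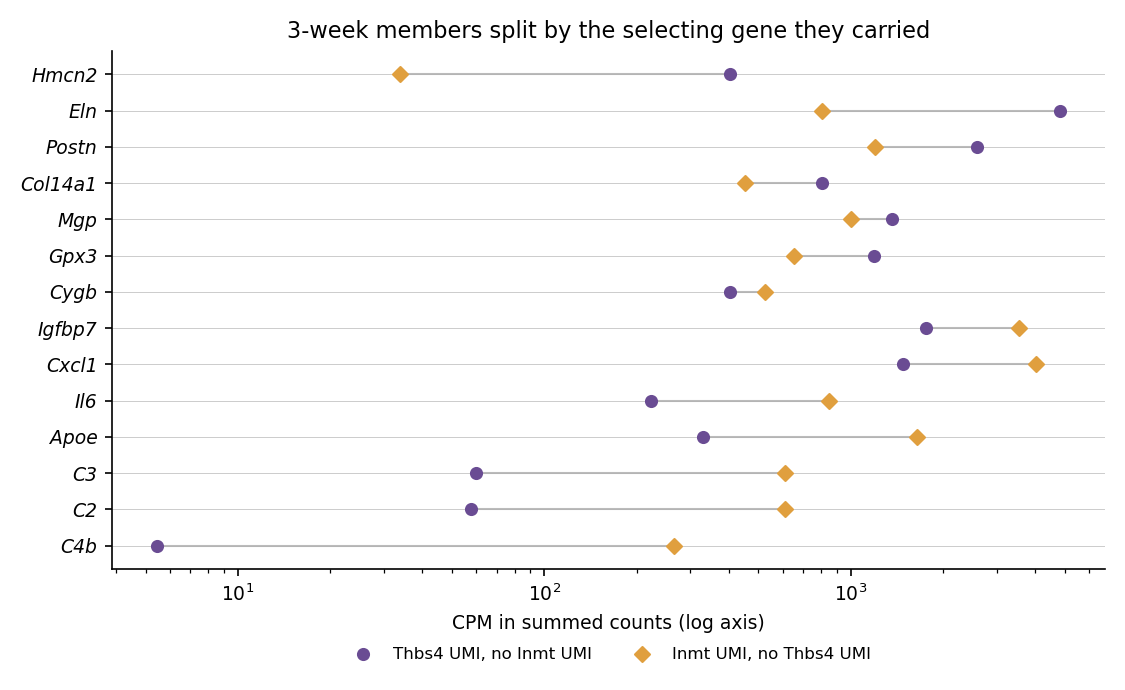
Levels (x axis, CPM in summed counts, log axis) of 14 genes outside the rule in the 61 members of the 3 week library with a Thbs4 UMI and no Inmt UMI (circles) and the 150 with an Inmt UMI and no Thbs4 UMI (diamonds). Hmcn2 and Eln were higher in the Thbs4 cells and C3, C2 and C4b in the Inmt cells.

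In the neonatal library 53 members had Thbs4 without Inmt, 2 had the reverse, 1 had both and 38 had neither. At 2 months the counts were 2, 101, 2 and 6. The 53 neonatal Thbs4 cells had 2.86 CPM of C3 and 6151 CPM of Eln, and the 38 with neither gene had 37.5 and 16245 CPM. The 101 Inmt cells at 2 months had 3488 CPM of C3 and 373 CPM of Eln. Because members entered the set by different genes at each age, a change within such cells and a change in their mixture cannot be told apart from the summed levels.

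Members were next compared with the other fibroblasts of the same library. Counts were summed over the cells of each set, and edgeR's quasi-likelihood test was run with the library as a block. The counts given cover the 13477 tested genes outside the rule. At an adjusted p of 0.05 (Benjamini-Hochberg), 366 genes were higher in members (2.72% of those tested) and 310 were lower (2.3%), 5.02% in all. Among the genes with the largest higher estimates were Mgp, Vtn, C2, Hmcn2, Ggt5, C4b, Cygb, Epha3, F3, Rasl11a and Gabra3. Among those with the largest lower estimates were Coch, Fam105a, Col7a1, Robo2, Tmem132c, Trps1, Cyp26b1, Col26a1, Bcl11b, Cyp4b1 and Wif1. By the rule used for naming genes, members lay on the same side in all 3 libraries for each of these genes. Some rest on few cells. At 2 months 1 cell held 37.5% of the Rasl11a UMIs in members, 36.7% of those of Hmcn2 and 30.8% of those of Vtn. In neonatal members 1 cell held 40% of the 20 Rasl11a UMIs. Hmcn2 stood at 33.8 CPM in the 150 Inmt cells of the 3 week library, against 28.6 CPM in other fibroblasts. The calls need the pairing within libraries. Without the library block edgeR called 0 genes in either direction, with 476 higher and 419 lower at an unadjusted p of 0.05, while DESeq2 with the block called 511 higher and 308 lower.

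Complement genes were the list with the most higher calls in members. Of the 22 tested genes of complement and chemokines, 10 were higher, 1 was lower and 11 did not pass, with a median log2 fold change of 1.32 against -0.07 over all genes tested. C4b stood at 11.9, 158 and 1646 CPM in members at the 3 ages, against 3.66, 16.8 and 212 CPM in other fibroblasts (log2 fold change 2.71 ± 0.26 SE, adjusted p = 0.00119 by edgeR). It was higher in members of each library, and both groups were low in the neonatal one. C2, the protease that pairs with complement component 4, was detected more evenly over the ages, with 206, 361 and 655 CPM in members against 55.8, 33.8 and 39.8 CPM (3.09 ± 0.35, adjusted p = 0.00258 by edgeR). C3 stood at 17.5, 395 and 3269 CPM in members against 2.58, 90.5 and 729 CPM (2.23 ± 0.21). Not all members shared this. The 61 Thbs4 cells of the 3 week library had 5.45 CPM of C4b and 59.95 CPM of C3, below the other fibroblasts of that library. Their C2, at 57.8 CPM, was above that of the other fibroblasts.

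Cfb, C1s1, C1ra and Serping1, which act in the alternative and classical cascades, and the chemokine genes Cxcl16 and Ccl11 were also higher, by 1.06 to 2.66 on the log2 scale. Cd55, which encodes a membrane inhibitor of complement and also marks interstitial progenitors, was lower (39.7, 60.4 and 42.7 CPM in members against 88.1, 142 and 114 CPM). C4b, C1s1 and C1ra each have close copies in the mouse genome, and how reads were shared between copies is not given in the sources used here. With each library left out in turn, 12 to 14 genes of the list were higher and 1 to 4 were lower.

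Of 15 tested genes of insulin-like growth factor signalling, 5 were higher and 0 were lower by edgeR at the adjusted threshold, with a median of 0.35. Igf1 stood at 285, 544 and 450.5 CPM in members against 88.0, 244 and 132 CPM (1.49 ± 0.19), and Igfbp3, a binding protein that carries the ligand, at 639.6, 1478 and 965 CPM against 190.0, 471 and 269 CPM (1.71 ± 0.16). Igfbp7 and Igfbp4 were higher by 1.43 ± 0.17 and 1.28 ± 0.21. Igf2 was higher by 1.56 ± 0.31 over the fit, but it stood at 1.07 CPM in members and 1.48 CPM in other fibroblasts at 2 months. The absence of lower genes did not hold when any library was left out. Without the neonatal library 5 of the 15 were higher and 5 lower. Without that of 3 weeks the counts were 6 and 2, and without that of 2 months 6 and 1.

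Of 30 tested WNT receptors and targets, 9 were lower, 2 higher and 19 did not pass, with a median of -0.09, close to that of all genes. Axin2, a feedback target of canonical WNT signalling, stood at 6.35, 7.31 and 3.20 CPM in members against 38.7, 30.0 and 31.8 CPM (-2.46 ± 0.26, adjusted p = 0.00173 by edgeR). Members held 8, 31 and 3 UMIs of Axin2. Fibroblasts with 3 or more Pi16 UMIs, compared below as Pi16-high, stood at 7.95, 19.3 and 20.8 CPM. Axin2 was lower in members than in other fibroblasts of each library. Nkd1 and Nkd2, also feedback inhibitors, were lower by -1.59 ± 0.21 and -1.25 ± 0.18, and Tcf7, Ccnd1, Twist1, Twist2, Apcdd1 and Ryk were lower as well. The receptor gene Fzd4 and Myc were higher, by 1.69 ± 0.22 and 1.49 ± 0.22. With 1 library left out, 2 to 4 genes of this list were higher and 6 to 12 lower.

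Of 15 tested WNT ligands and R-spondins, which enhance WNT signalling at the receptor, 4 were lower and 0 higher by edgeR (Rspo1, Rspo3, Rspo4 and Wnt5b). Rspo3 stood at 37.3, 1.65 and 1.07 CPM in members against 151, 9.31 and 9.48 CPM. Among 14 secreted WNT antagonists besides Sfrp4, Wif1 and Dkk3 were lower and Sfrp1 and Igfbp4 higher. Wif1 stood at 28.6, 7.08 and 5.34 CPM in members against 232, 23.0 and 26.4 CPM. The lists for WNT genes, papillary fibroblasts and follicle mesenchyme share some of these genes, so their counts are not separate evidence.

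Of 12 tested papillary genes, 5 were lower (Axin2, Rspo1, Tnfrsf19, Apcdd1 and Lrig1) and 0 higher by edgeR, and 7 did not pass, with a median of -0.85. Of 13 reticular genes, 3 were past the threshold on the higher side and 0 on the lower side, with a median of 0.96. These were Gpx3, Fgf18 and Mgp, and the last is only a description, as above. The 3 became 10 without the neonatal library, 4 without that of 3 weeks and 7 without that of 2 months. Gpx3, a secreted glutathione peroxidase, stood at 209.5, 848 and 2448 CPM in members against 40.5, 469 and 1032 CPM (1.43 ± 0.30, adjusted p = 0.0310 by edgeR). It was not particular to members. Cells that met the gene count but had 3 or more Pi16 UMIs had more Gpx3 at each age, with 375, 2091 and 2780 CPM. Among genes of follicle-associated mesenchyme 5 of 12 were lower and Fgf7 was higher. Coch, which encodes the matrix protein cochlin, stood at 0.794, 1.42 and 71.5 CPM in members against 14.4, 581 and 855 CPM, and 59 of its 67 UMIs in members at 2 months came from 1 cell. Of 11 tested tendon genes, Tnmd, Mkx and Col11a1 were lower and Prg4 was higher, and without the neonatal library 6 were lower and 2 higher.

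Of 22 tested genes in the collagen list, 5 were higher, 2 were lower and 15 did not pass, with 9 and 4 without the neonatal library. Col4a1 and Col4a2, which form the basement membrane network, stood at 619.8, 619 and 643 CPM and at 379, 355 and 400.3 CPM in members, against 353, 280.1 and 251 CPM and 185, 148 and 132 CPM in other fibroblasts. Both were higher in members of each library, with log2 fold changes of 1.06 ± 0.16 and 1.25 ± 0.16. Col5a3, Col6a6 and Col8a1 were higher as well. Col26a1 and Col11a1 were the lower ones. Col7a1, the anchoring fibril collagen, is not in that list and was lower too (-2.93 ± 0.27). The fibrillar genes used in the rule, Col1a1 and Col1a2, stood at 14464, 25723 and 25023 CPM and at 14176, 27234 and 26974 CPM in members, against 16461, 57453 and 57756 CPM and 14573, 59725 and 66585 CPM, which is a description since both are part of the gate.

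Of 13 tested genes of the interleukin-1 family and its receptors, Il1r2, Il18 and Il1rap were lower and 0 were higher by edgeR. Il1r2, the decoy receptor that binds the ligand without signalling, stood at 3.17, 77.6 and 185 CPM in members against 7.19, 214 and 620.4 CPM (-1.64 ± 0.20, adjusted p = 0.00302 by edgeR). Il1r1, the signalling receptor, stood at 36.5, 94.8 and 114 CPM in members against 46.2, 38.4 and 44.5 CPM and did not pass (0.79 ± 0.28, adjusted p = 0.176 by edgeR). Without the neonatal library, where Il1r1 ran the other way, 4 genes of this list were higher and 3 lower. Of 22 genes of the NF-kB response, Il6, Cxcl1 and Nfkbiz were higher. Il6 stood at 252, 624 and 392 CPM in members against 152, 169 and 97.4 CPM (adjusted p = 0.00885 by edgeR). Of 23 genes induced by dissociation and heat, 4 were also higher (Dnajb1, Egr2, Atf3 and Zfp36), and their part in the result for the NF-kB genes was not tested. This count of 3 was 14 without the neonatal library and 1 without that of 3 weeks.

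Other groups held calls as well. Among 27 genes of xenobiotic metabolism and methyl transfer, 7 were higher and 3 lower, and 11 and 5 without the neonatal library. Fmo1, a relative of Fmo2 in the same gene family, stood at 61.9, 74.3 and 89.7 CPM in members against 17.0, 35.1 and 31.2 CPM (1.42 ± 0.20), while the dehydrogenase gene Aldh3a1 was lower (-3.05 ± 0.36). Of 35 genes of bone morphogenetic protein and transforming growth factor signalling, 3 were higher and 5 lower, and 10 and 12 without the neonatal library. Grem1 was lower (-2.05 ± 0.19), and Chrdl1 and Fst, also secreted antagonists, were higher (2.07 ± 0.23 and 1.39 ± 0.19). Of 18 genes of preadipocytes and lipid handling, Ebf2, Apoe, Lpl and Cebpb were higher and 0 were lower by edgeR. Without the neonatal library 9 were higher and 2 lower, and without that of 3 weeks 2 and 2. Pparg, the master regulator of adipocyte formation, was at 4.76, 10.6 and 0 CPM in members. Of 35 transcription factors of the dermis, 7 were higher and 3 lower, and 13 and 6 without the neonatal library. Tshz2 was level over the ages at 117, 117 and 122 CPM in members against 19.3, 18.5 and 35.3 CPM (2.31 ± 0.22).

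**Figure D3:**
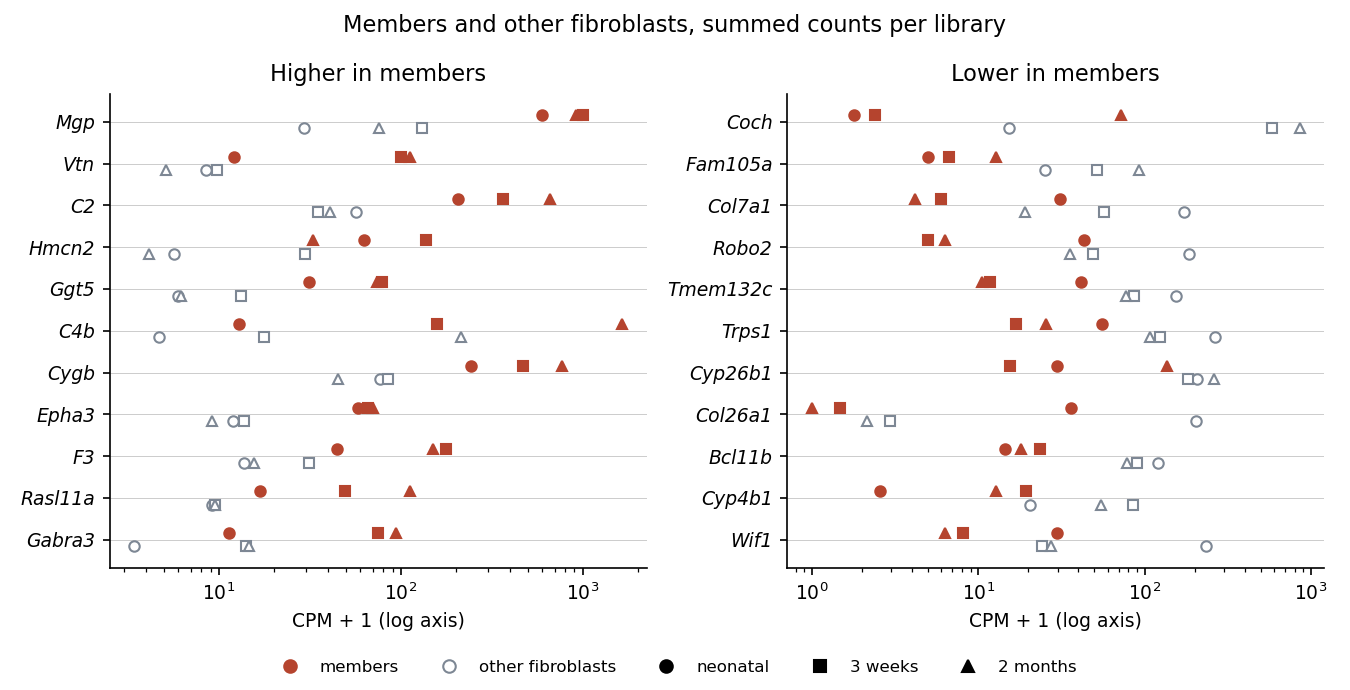
Levels (x axis, CPM + 1, log axis) of 11 of the genes with the largest higher estimates (left panel) and 11 with the largest lower estimates (right panel) in members (filled) and other fibroblasts (open), by library (circles neonatal, squares 3 weeks, triangles 2 months). C4b at 2 months stood at 1646 CPM in members and 212 CPM in other fibroblasts.

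**Figure D4:**
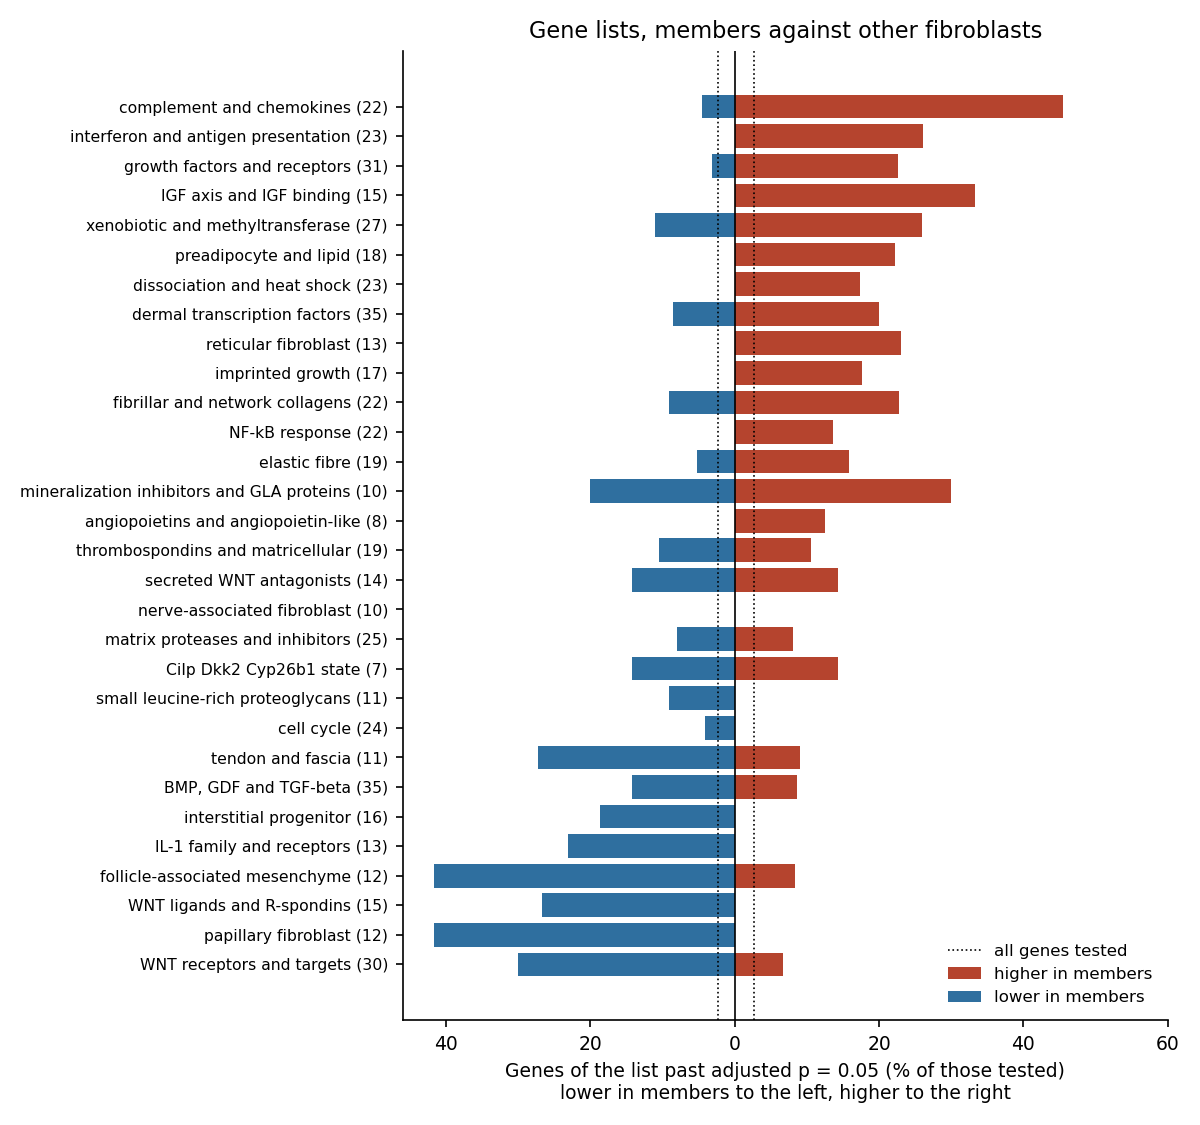
Share of the tested genes of each list (x axis, %; number tested in parentheses) that edgeR called higher in members (right of 0) or lower (left of 0) at an adjusted p of 0.05, with library as a block; dotted lines mark the shares over all genes tested, 2.72% higher and 2.3% lower. Complement and chemokines had 10 of 22 higher, and WNT receptors and targets had 9 of 30 lower.

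Markers of other cells moved in both directions with these counts. The 5 Schwann cell markers summed to 17.5, 11.8 and 23.5 CPM in members against 43.9, 100.5 and 135 CPM, and red cell genes summed to 34.1, 1479 and 14.9 CPM in members against 936, 2820 and 671 CPM. Their part in the lower calls was not tested. The mural list held 1 call, Abcc9, which was higher (42.9, 27.1 and 39.5 CPM in members against 4.77, 8.54 and 12.8 CPM). The summed level of the 6 mural markers was 92.1, 197 and 55.5 CPM in members against 238, 184 and 66.3 CPM in other fibroblasts, with Myh11 at 0 in members of the neonatal and 2 month libraries. The 5 skeletal muscle markers summed to 227, 25.5 and 2.13 CPM in members against 26.1, 31.6 and 12.5 CPM, so they were higher in members of the neonatal library and lower at the other ages. Doublet scores by Scrublet placed 11 of 94, 33 of 317 and 7 of 111 members in the top 6% of their libraries. Among other fibroblasts these were 269 of 4096, 305 of 5015 and 255 of 4374, so the share was larger in members of each library. Without the top 6% of all cells 401 genes were higher and 357 lower.

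The same test against the Pi16-high fibroblasts, which were 169, 1182 and 1717 cells at the 3 ages, gave fewer calls. Of 10624 genes, 94 were higher in members (0.885%) and 89 were lower (0.838%), 1.72% in all. Agt, which encodes angiotensinogen, Rgs16, Vtn, Tmem176b, Steap4, Rasl11a, Vit, Ggt5, Nr2f2, Apoe and Kcne4 were among those with the largest higher estimates. Vtn, the adhesive plasma protein vitronectin, stood at 11.1, 99.1 and 111 CPM in members against 0, 4.68 and 5.81 CPM in Pi16-high cells (4.46 ± 0.23, adjusted p = 0.00249 by edgeR). Apoe stood at 254, 1110.4 and 1535 CPM in members against 97.7, 212 and 236 CPM (2.23 ± 0.29). Vtn, Ggt5 and Rasl11a were among the leading higher genes in both comparisons. Agt is not among the calls against all other fibroblasts, and 36 of its 71 UMIs in neonatal members came from 1 cell.

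On the lower side stood Efhd1, Pla1a, Aldh1a3, Bmp7, Gap43, Anxa3, Smpd3, Mustn1, Wnt2, Mgll and Dpp4. Dpp4, a surface peptidase of interstitial progenitors, stood at 52.4, 53.8 and 48.0 CPM in members against 230.1, 228 and 275 CPM (-2.18 ± 0.15, adjusted p = 0.00572 by edgeR). Of 16 tested genes of the interstitial progenitor list, 8 were lower and 0 higher, which follows in part from the use of Pi16 to define both sets. Complement and chemokine genes split into 4 higher (among them Cxcl16, C1s1 and C3) and 2 lower (Cd55 and Ackr3) of 21. Col4a1, Col4a2 and Col27a1 were higher, and 0 of the 20 tested collagens were lower. Mgp differed by 3.31 ± 0.65 on the log2 scale, also given as a description. Of 13 reticular genes, 10 papillary genes and 26 WNT receptors and targets, 0 passed in either direction by edgeR. This comparison rests on the 3 week library. Without it edgeR called 0 genes in both directions (380 higher and 465 lower at an unadjusted p of 0.05), without the 2 month library 10 and 12, and without the neonatal library 491 and 483.

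Between the neonatal stage and 3 weeks, levels in members were compared by CPM. A gene was measured with at least 50 CPM and 20 UMIs in the higher library and was counted from a 2-fold difference, with counts under 3 set to 3. Of 3040 genes, 313 were higher at 3 weeks (10.3%) and 166 lower (5.46%). In other fibroblasts 9.66% of 3064 genes were higher and 10.5% lower. The split depends on scaling. With mitochondrial, ribosomal protein and haemoglobin genes left out, 298 were higher and 290 lower, and the median log2 ratio over all measured genes was -0.11 in place of 0.05. Complement and chemokine genes had 8 of 13 higher and 0 lower, and interferon and antigen presentation genes 10 of 12 higher and 0 lower. Xenobiotic genes had 8 of 11 higher and matrix proteases and inhibitors 8 of 18, with 0 lower in both lists. Median log2 ratios were 2.25 in members and 1.26 in other fibroblasts for the complement list. For the interferon list they were 1.86 and 2.59. Ifi205 stood at 468 CPM in members at 3 weeks and 6.35 CPM in neonatal members, and at 139 and 3.71 CPM in other fibroblasts. The antigen presentation gene H2-K1 stood at 616 and 80.2 CPM in members and at 767 and 71.7 CPM in other fibroblasts.

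Mmp3, a stromal matrix metalloproteinase, had the largest higher ratio, with 2620 UMIs in members at 3 weeks (618 CPM) and 1 UMI in neonatal members (0.794 CPM). In other fibroblasts Mmp3 stood at 146 CPM at 3 weeks and 6.52 CPM in the neonatal library. Cst6 was named by the same rule, but 522 of its 553 UMIs at 3 weeks came from 1 cell. Imprinted growth genes were lower at 3 weeks, 7 of 12 measured with 0 higher. Dlk1, a regulator of growth and of adipocyte formation, stood at 281 CPM in members at 3 weeks and 12282 CPM in neonatal members, H19 at 205 and 4005 CPM and Igf2 at 44.8 and 1144 CPM. All 3 were also at least 2-fold lower in other fibroblasts. Akr1c18 went against them. It stood at 3.07 CPM in members at 3 weeks and 146 CPM in neonatal members, and at 111 and 71.4 CPM in other fibroblasts, and 8 neonatal members held all of its UMIs.

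Some of the genes named by this rule are not specific to fibroblasts. Xist stood at 0.236 CPM in members at 3 weeks and 539 CPM in neonatal members, and the Y-linked Ddx3y at 104 and 25.4 CPM. The sexes in a library and its age therefore cannot be told apart in this comparison, for sex-linked genes or for others. Acta1, Myl1 and Mylpf, which are muscle genes, were lower at 3 weeks. The 5 skeletal muscle markers summed to 25.5 CPM in members at 3 weeks and 227 CPM in neonatal members, where Myod1, Pax7 and Myf5 were at 0, and the part of muscle RNA in this result was not tested. Krt15, a keratin of epidermal cells, was higher at 3 weeks (301 CPM, against 0.794 CPM in neonatal members), beside the keratinocyte marker sums given above, whose part was not tested either.

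Between 3 weeks and 2 months 127 of 2954 genes were higher at 2 months (4.3%) and 174 lower (5.89%), with 148 and 144 after TMM scaling. Other fibroblasts had 3.36% higher and 3.14% lower. This comparison and the one before share the 3 week library. The complement and chemokine genes were higher again, with 7 of 17 measured higher and 0 lower. Their median log2 ratio was 0.86 in members and 0.81 in other fibroblasts. C3 stood at 3269 CPM in members at 2 months and 395 CPM at 3 weeks, and C4b at 1646 and 158 CPM. In other fibroblasts C3 stood at 729 and 90.5 CPM. C7, a component of the membrane attack complex, had 56 UMIs in 37 of the 111 members at 2 months (59.8 CPM) and 0 UMIs at 3 weeks. This was at least 84.5-fold higher by the floor of 3 counts per library. In other fibroblasts C7 was higher at 2 months too, with 9.95 CPM against 0.0310 CPM at 3 weeks. The chemokine gene Cxcl14 stood at 637 CPM in members at 2 months and 109 CPM at 3 weeks, and at 28.6 and 29.7 CPM in other fibroblasts.

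Genes of the elastic fibre, of collagens and of imprinted growth were lower at 2 months. Of 18 measured elastic fibre genes 12 were lower and 0 higher, with a median log2 ratio of -1.13 in members and -0.62 in other fibroblasts. Eln stood at 382 CPM in members at 2 months and 1907 CPM at 3 weeks, Mfap4, a microfibril protein gene, at 357 and 1522 CPM, and Fbln5, which guides elastin assembly, at 45.9 and 142 CPM. Fbln5 stood at 165 and 184 CPM in other fibroblasts. Of 15 collagens outside the rule 9 were lower and 0 higher, among them Col6a1 (1045 CPM at 2 months, 2110.3 CPM at 3 weeks), Col6a2 (733 and 1807 CPM) and Col14a1 (148 and 579 CPM). Of 11 imprinted genes 9 were lower. Dlk1 and H19 had 0 UMIs in members at 2 months, against 281 and 205 CPM at 3 weeks, at least 87.7-fold and 64.2-fold lower by the same floor. In other fibroblasts Dlk1 stood at 2.47 CPM at 2 months and 52.1 CPM at 3 weeks, and H19 at 0.467 and 115 CPM.

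Single cells carried several of the higher ratios at 2 months. Of the UMIs in members, 1 cell held 97.1% for Ctla2a, 88.1% for Coch and 75.9% for Gal, and without that cell the log2 ratios were 2.56, 2.61 and 4.04 in place of 7.63, 5.66 and 6.04. Sult1e1, a sulfotransferase of estrogens, and Agt were spread over more members, 26 and 47 of 111. Sult1e1 had 117 UMIs in members at 2 months and 0 at 3 weeks, at least 176-fold higher by the floor. It was higher at 2 months in other fibroblasts too, with 33.6 CPM against 0 CPM at 3 weeks. Agt stood at 217 CPM in members at 2 months and 5.19 CPM at 3 weeks, and at 5.55 and 2.67 CPM in other fibroblasts.

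**Figure D5:**
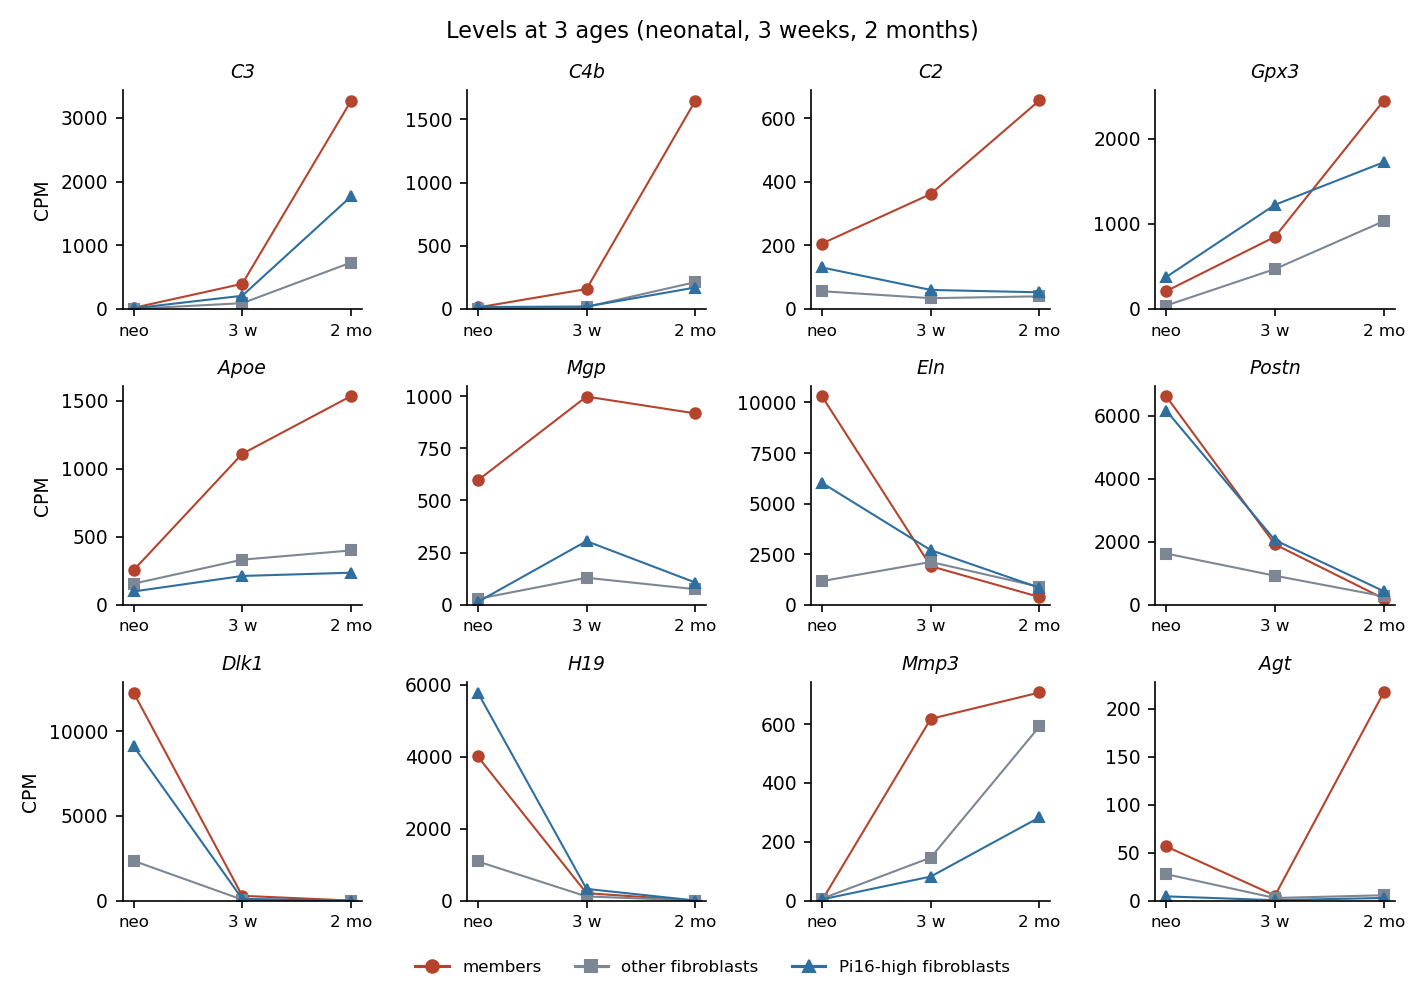
Levels (y axis, CPM in summed counts, linear axis from 0) of 12 genes in members, other fibroblasts and Pi16-high fibroblasts at the neonatal stage (neo), 3 weeks (3 w) and 2 months (2 mo), 1 library each. C3, C4b and Gpx3 in members were highest at 2 months, and Eln, Postn, Dlk1 and H19 in members were highest at the neonatal stage, where Pi16-high fibroblasts had more H19 (5782 CPM) than members (4005 CPM).

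The difference between members and other fibroblasts was itself not the same at each age. Across 2192 genes with at least 50 CPM in members or other fibroblasts of every library, the log2 ratio of members over other fibroblasts at 2 months correlated with that at 3 weeks with Pearson r = 0.76 and Spearman rho = 0.69. At 3 weeks against neonatal these were 0.51 and 0.42, and at 2 months against neonatal 0.37 and 0.24. These values are across genes, which are not independent replicates, and describe the libraries only. Of all 2192 genes, 123 were at least 2-fold higher in neonatal members and 120 in members at 2 months. Of these, 40 were in both, which is 32.5% and 33.3% of each list. Between 3 weeks, with 103 genes, and 2 months 71 were in both, which is 68.9% and 59.2%.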

How the data were processed

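Dissociated mouse back skin was profiled with a 3′ droplet kit, in 3 libraries of 1 age each. The deposited files hold UMI counts per gene and cell barcode, made by the authors with Cell Ranger 3.0.2 and, per the submitters' processing notes, Seurat 2.0 and the mm10 build. Counts were not normalized by the authors, as the whole numbers in the files show. No cell annotation was used, so members were found by gates on counts of 27998 genes.

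Counts were summed over the cells of each set in each library and tested with edgeR 4.0.16 (TMM, filterByExpr, quasi-likelihood, Benjamini-Hochberg, library as block) in R 4.3.3, with DESeq2 1.42.0 as an alternative. Genes of the rule took part in the fit and in the adjustment of p-values but are left out of all counts of genes tested or called. The block is given by the design, since both cell sets come from the same library. On simulated data edgeR recovered 28.9% of genes changed by a log2 of 1 and 90% of those changed by 2 against other fibroblasts (13290 genes), and 20.4% and 97.7% against Pi16-high cells (10439 genes). The simulation gave all genes the same fixed dispersion and each changed gene the same fold change in every library. In the real data the differences varied with age, so these shares need not hold there. Ages were compared by CPM only, computed here. Doublets were not removed. Scrublet's own threshold marked 0.0253%, 2.37% and 3.73% of cells, so removing the top 6% by score was an alternative. Thinning, cell gates and figures used Python 3.11.15, numpy 2.4.6, scipy 1.17.1, pandas 2.3.3 and scanpy 1.11.5.

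The members and gene lists were chosen with earlier results of these data known. Genes were named by rule: the 12 largest changes in each direction with 50 or more CPM, up to 4 per list by lowest p, and for ages the 10 in each direction whose counting interval lay farthest from 1. The remaining genes named from the lists, the split at 3 weeks and the age comparisons were chosen after their values were seen. Results for some genes are not reported here.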

Additional observations from a re-analysis of the deposited data

Results flagged for a closer look

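For 5 genes the log2 ratio of members over other fibroblasts ran in opposite directions at different ages, by at least 2-fold each way. With 1 library per age these differences were not tested. Eln stood at 10301 CPM in members and 1169.7 CPM in other fibroblasts of the neonatal library (3.14), and at 382 and 888 CPM at 2 months (-1.22). Meg3, an imprinted noncoding RNA, stood at 8692 and 3512 CPM in the neonatal library (1.31) and at 816 and 2191 CPM at 2 months (-1.43). Ltbp2, a microfibril-associated protein, stood at 136 and 20.1 CPM in the neonatal library (2.76) and at 13.7 and 82.0 CPM at 3 weeks (-2.58). Gdf15, a stress-induced ligand, stood at 61.1 and 16.5 CPM in the neonatal library (1.89) and at 21.3 and 86.0 CPM at 2 months (-2.01). In contrast to these, Hspb1, a small heat shock protein, stood at 72.2 and 608 CPM in the neonatal library (-3.07) and at 1085 and 474 CPM at 2 months (1.2).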

How the results depend on the processing

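Against other fibroblasts, edgeR called 471 lower genes with no low-count filter, 174 higher and 145 lower with cells within the members' interquartile UMI range, and 704 and 623 with members carrying at least 4 of the 6 genes, which left 2 libraries. With no replicate block it called 0 and 0 (476 and 419 at an unadjusted p of 0.05, against 511 and 308 by DESeq2 with the block). Leaving out 1 library gave 254 to 1029 higher and 236 to 901 lower. Without the Pi16-high cells among the other fibroblasts, an alternative chosen after seeing the data, the counts were 480 and 330. Of the 24 named genes, 0 changed sign in any of these settings, and Col26a1 alone lost its call without the neonatal library and with at least 4 genes, as all 24 did with no block. The naming rule already required the same direction in every library, so leaving a library out is no check of the sign. Against Pi16-high cells, the counts were 177 and 139 by DESeq2, 431 and 584 with no low-count filter, 472 and 428 with at least 4 genes, and 0 and 0 with no replicate block (310 and 291 at an unadjusted p of 0.05). Leaving out 1 library gave 0 to 491 higher and 0 to 483 lower. Of the 23 named genes still tested, 0 kept a call without the 3 week library and 12 without that of 2 months, and 0 of 24 with no block. The share of members was 0.626%, 2.31% and 1.41% at the 3 ages when thinned to 3000 UMIs, and 0.144%, 0.921% and 0.683% at 1500 UMIs, by the construction of a rule that needs detected genes. No paired analysis was possible between ages because each age is 1 library. At 3 weeks against neonatal, 290 genes were lower with totals without mitochondrial, ribosomal protein and haemoglobin genes, 615 were higher and 422 lower with a 20 CPM minimum, and 481 were higher with at least 4 genes. At 2 months against 3 weeks the 20 CPM minimum gave 231 and 389. Where no construction is named, the cause was not tested. Leaving out 1 member per gene, also chosen after seeing the data, moved Cst6 from a log2 ratio of 5.78 to 1.63 and Trf from 3.75 to 3.01.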
